A study of Mus musculus with 42 samples.

Results

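Fabp7, Fabp5 and Fabp3 are the 3 fatty acid binding protein genes chosen here out of 35275 genes in the deposited cerebellum tables, matched by their symbols. They were selected on measured values: the Fabp7 level in IF16 against AL (daily fasting against free feeding, defined below), known from earlier results, led to the choice, and Fabp5 and Fabp3 are the other brain forms. All member values of that contrast, and all other Fabp7 values that use the same fasted or freely fed libraries, are therefore given below as a description with no test. The tables hold 30 RNA-seq libraries from the cerebellum of male C57BL/6 mice (the series text names the substrain C57/BL6NTac), 5 libraries in each of 6 groups. All mice ate freely to 3 months of age. For the next 3 months they had free food (AL), a fast of 16 h each day (IF16) or a fast of 24 h on alternate days (EOD), and were 6 months old at the end. The other 3 groups followed the same regimens and then all returned to free feeding for 2 months, reaching 8 months of age; they are called AL-R, IF16-R and EOD-R after the regimen each had followed. Every group had free water and the same chow, the hour of collection is not given in the sources used here, and nothing there says that each library is a separate mouse, so p-values measure the spread between these libraries, which may be technical.

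Fatty acid binding proteins are small cytosolic proteins that fold into a barrel around a long-chain fatty acid and carry it between membranes, enzymes and the nucleus. Fabp7, the brain form, favours polyunsaturated fatty acids such as docosahexaenoic acid and is known from radial glia, astrocytes and the Bergmann glia of the cerebellum, and its mRNA is known to cycle over the day in mouse brain. Fabp5, the epidermal form, is found in both neurons and glia and also carries endocannabinoids and retinoic acid, while Fabp3, the heart form, is mostly neuronal in adult brain and is known for arachidonic acid binding.

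In the annotation of the deposited tables, which use build mm10, Fabp7 (ENSMUSG00000019874) lies on the plus strand at chr10:57784881-57788450 with 880 exonic bases. Fabp5 (ENSMUSG00000027533) lies on the plus strand at chr3:10012548-10016607 with 3238 bases, and Fabp3 (ENSMUSG00000028773) lies on the plus strand at chr4:130308595-130315463 with 823 bases. The promoters of Fabp7 and Fabp3 are shown because the level of the first differed between regimens while that of the second was close in all 6 groups. Both come from RefSeq on GRCm38.p6, whose coordinates are those of mm10, run 5′ to 3′ on the plus strand and stop at the base before the deposited gene start. The Fabp7 window is chr10:57784673-57784880, 250 to 43 bases before the RefSeq start, and the Fabp3 window is chr4:130308488-130308594, 250 to 144 bases before it. The table of promoters matched 2 of the 3 members, Fabp7 and Fabp3. Capitals mark the only match to a nuclear receptor half-site, AGGTCA, which lies on the minus strand and so reads TGACCT.
Fabp7: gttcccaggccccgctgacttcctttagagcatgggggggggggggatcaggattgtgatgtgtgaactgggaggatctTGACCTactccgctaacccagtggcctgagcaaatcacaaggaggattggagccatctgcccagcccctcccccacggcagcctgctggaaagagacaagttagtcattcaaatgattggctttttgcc
Fabp3: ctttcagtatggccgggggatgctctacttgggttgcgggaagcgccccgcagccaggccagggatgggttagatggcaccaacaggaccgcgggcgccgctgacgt

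Both strands of each window were searched for 6 letter patterns. In the Fabp7 window AGGTCA matched 1 time, 166 bases before the RefSeq start, and 11.9% of 32851 RefSeq promoter windows of the same length and place also held it. TGGGAA, the RBPJ core, matched 1 time (18.5% of windows) and CCAAT, the CCAAT box, matched 2 times (29.6% of windows). The E-box CACGTG (4.59% of windows), the POU octamer ATGCAAAT (1.38%) and the nuclear factor I palindrome (0.0274%) had no match in these letters. The last of these had none in the whole 250 bases before the RefSeq start either, where 0.0365% of promoters held it. None of the 6 patterns matched in the shorter Fabp3 window, where AGGTCA was found in 6.18% and CCAAT in 14.5% of windows of that length. G and C made up 56.2% of the Fabp7 window and 66.4% of the Fabp3 window, against medians of 51.9% and 50.5% over all promoters. The Fabp7 window is thus above the median for its G and C content and holds 3 of the 6 patterns, each found in 11.9% or more of windows. The spread of base content over promoters was not measured.

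Total counts ran from 26799825 to 36167435 per library. Libraries differed in how expression varied with gene length: the change in log2 level for each doubling of length, relative to the other libraries, was -0.158 and -0.106 in AL replicates 4 and 5, -0.114 in IF16 replicate 1 and 0.139 in EOD replicate 4, and the refed libraries lay between -0.0261 and 0.0416, with every IF16-R library above every AL-R library. Choroid plexus RNA varied between libraries, Ttr running from 7.83 to 4104 CPM (counts scaled to library size), and the cause was not tested. Bergmann glia and astrocyte markers such as Slc1a3, Aldoc and Gdf10 were measured in all 30 libraries, granule cell and Purkinje cell markers as well.

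Compared per length, Fabp3 and Fabp7 were the abundant forms and Fabp5 lay lower. The unit here is FPKM, reads scaled to gene length and library size, averaged over the 15 libraries of a table. Fabp3 averaged 62.7 FPKM at the end of the regimen and 55 after refeeding, ranks 1109 and 1256 among the 35275 genes. Fabp7 averaged 38.7 and 50.7 FPKM, ranks 1976 and 1371, so it stood nearer to Fabp3 in the refed libraries. The first average pools AL at 57.4 FPKM with IF16 at 24.3 and EOD at 34.5. Fabp3 was at 64.1 FPKM in AL, and AL-R had 55.5 for Fabp7 and 55.2 for Fabp3. Fabp5 averaged 11.7 and 10.7 FPKM, with the longest exon length of the 3 in the divisor (3238 bases, against 880 for Fabp7 and 823 for Fabp3). Total counts over all libraries lay closer, at 35269 for Fabp5, 38203 for Fabp7 and 47102 for Fabp3. The size of the gap in FPKM thus rests on the length used. All 3 members passed the filter on low counts in both tables.

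Of the 13 other genes listed for the wider family, 12 are in the tables, and 9 of these were near 0. The liver form Fabp1 was at 0 in 28 of 30 libraries and the intestinal form Fabp2 in all 30. The adipocyte form Fabp4 had 0 to 12 counts, the ileal form Fabp6 0 to 3, and the myelin form Pmp2, found in peripheral nerve, had 2 counts in all 30 libraries. Fabp9, Fabp12, Rbp2 and Crabp1 had at most 1, 2, 8 and 3 counts in any library. The retinoid carriers Crabp2 and Rbp7 were measurable, Crabp2 at 5.16 and 5.52 FPKM at the end of the regimen and after refeeding and Rbp7 at 0.72 and 0.471 FPKM. Neither was called in any of the 6 comparisons, by edgeR or DESeq2, and neither reached an unadjusted p under 0.05. Near copies of 2 members were looked up after the values were seen. Fabp3-ps1 had 12 to 34 counts per library against 1187 to 2271 for Fabp3, and Fabp5l2 had 1 count in all. Reads that map to both a member and its copy were not measured here, so the Fabp3 and Fabp5 counts are uncertain to that extent.

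**Figure D1:**
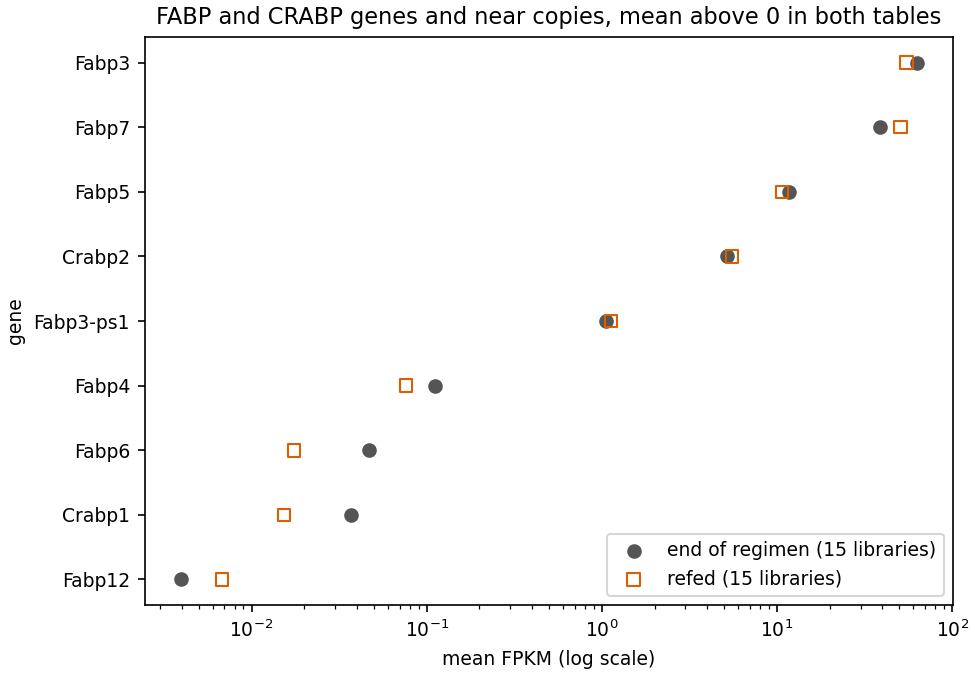
Mean FPKM (horizontal log axis) of the FABP and CRABP genes and near copies with a mean above 0 in both tables, at the end of the regimen (filled circles, 15 libraries) and after refeeding (open squares, 15 libraries). Fabp3 and Fabp7 lie between 38.7 and 62.7 FPKM, Fabp5 near 11, and the retinoid carrier Crabp2 at 5.16 and 5.52.

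Fabp7 stood at 41.8, 41.6, 47.7, 58.4 and 63.9 CPM in AL replicates 1 to 5 (scaled by the trimmed mean of M-values). In IF16 it stood at 25.6, 23.2, 16.8, 23.2 and 17.7 CPM. Every IF16 library was below every AL library. In EOD it stood at 26.6, 25.7, 43.8, 18.8 and 37.5 CPM. The EOD libraries spread most: replicate 3 was above 2 of the AL libraries, replicate 5 was under the AL range, replicates 1 and 2 were just above the highest IF16 library, and replicate 4 was inside the IF16 range. The coefficient of variation was 32.9% in EOD, against 19.9% in AL and 18% in IF16. Group means were 50.7 ± 10.1 CPM in AL, 30.5 ± 10 in EOD and 21.3 ± 3.84 in IF16 (SD, n = 5 each). In this order AL and EOD overlapped, and EOD and IF16 overlapped.

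IF16 had 42% of the AL level of Fabp7, a log2 fold change of -1.25 (SE 0.2, 95% interval -1.67 to -0.827). Fabp7 was the 1 member of 3 whose IF16 and AL ranges did not touch with IF16 the lower, as was so for 0.694% of the 16577 genes tested. That contrast led to the choice of the gene, so nothing is read from the count. EOD had 60.1% of the AL level, a log2 fold change of -0.73 (SE 0.197, interval -1.15 to -0.316), and 143% of the IF16 level, 0.52 (SE 0.199, interval 0.0957 to 0.937). In AL and IF16 the highest Fabp7 libraries were AL replicates 4 and 5 and IF16 replicate 1, and the lowest in EOD was replicate 4, which are the 4 libraries with the steepest length gradients named above. Without those 4 the log2 fold change was -1.11 for IF16 against AL and -0.39 for EOD against AL, and with the gradient as a covariate it was -1.09 and -0.44. The part of the gradient in these differences was not tested.

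After the return to free feeding Fabp7 stood at 55.1, 47.4, 42.5, 52.5 and 45.6 CPM in AL-R. In IF16-R it stood at 32, 36.7, 40.3, 42.8 and 44.2 CPM. In EOD-R it stood at 44.4, 45.6, 42.4, 51.5 and 45.9 CPM. Of the IF16-R libraries 3 were under the lowest AL-R library and the other 2 were inside the AL-R range, while 4 of the 5 EOD-R libraries lay inside it and EOD-R replicate 3 lay just below. Group means were 48.6 ± 5.15 in AL-R, 46 ± 3.39 in EOD-R and 39.2 ± 4.96 in IF16-R (SD, n = 5 each), in the same order as at the end of the regimen, with neighbours again overlapping.

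IF16-R had 80.6% of the AL-R level of Fabp7, a log2 fold change of -0.31 (SE 0.0825, interval -0.486 to -0.14), with an adjusted p of 0.188 in edgeR's quasi-likelihood test over 16444 genes. The unadjusted p was 0.00125. No member was called in this comparison at an adjusted p under 0.05, where 0.17% of all genes were. Of the 3, 1 (Fabp7) had an unadjusted p under 0.05, as did 9.58% of all genes. DESeq2 called Fabp7 at the same size, -0.31, with an adjusted p of 0.0378, among the 103 genes it called in this comparison. The difference was -0.42 with an adjusted p of 0.999 when the length gradient, which separates the IF16-R from the AL-R libraries, was a covariate. Leaving out 1 library at a time gave -0.36 to -0.25, with adjusted p between 0.137 and 0.429 in edgeR.

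EOD-R had 94.6% of the AL-R level of Fabp7, -0.08 on the log2 scale (SE 0.082, interval -0.253 to 0.0911, edgeR adjusted p = 0.849). Between the 2 refed fasting groups the log2 fold change of EOD-R against IF16-R was 0.23 (SE 0.0828, interval 0.0589 to 0.406, edgeR adjusted p = 0.347). The refeeding differences for Fabp7 were thus smaller than those at the end of the regimen. In a model over all 30 libraries the IF16 difference was 0.94 higher on the log2 scale after refeeding than before it (SE 0.225, interval 0.479 to 1.4) and the EOD difference 0.65 higher (SE 0.223, interval 0.19 to 1.1). The second of these was 0.31 without the 4 libraries of steepest gradient. Both use the AL libraries that entered the choice of Fabp7, so both are descriptions.

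**Figure D2:**
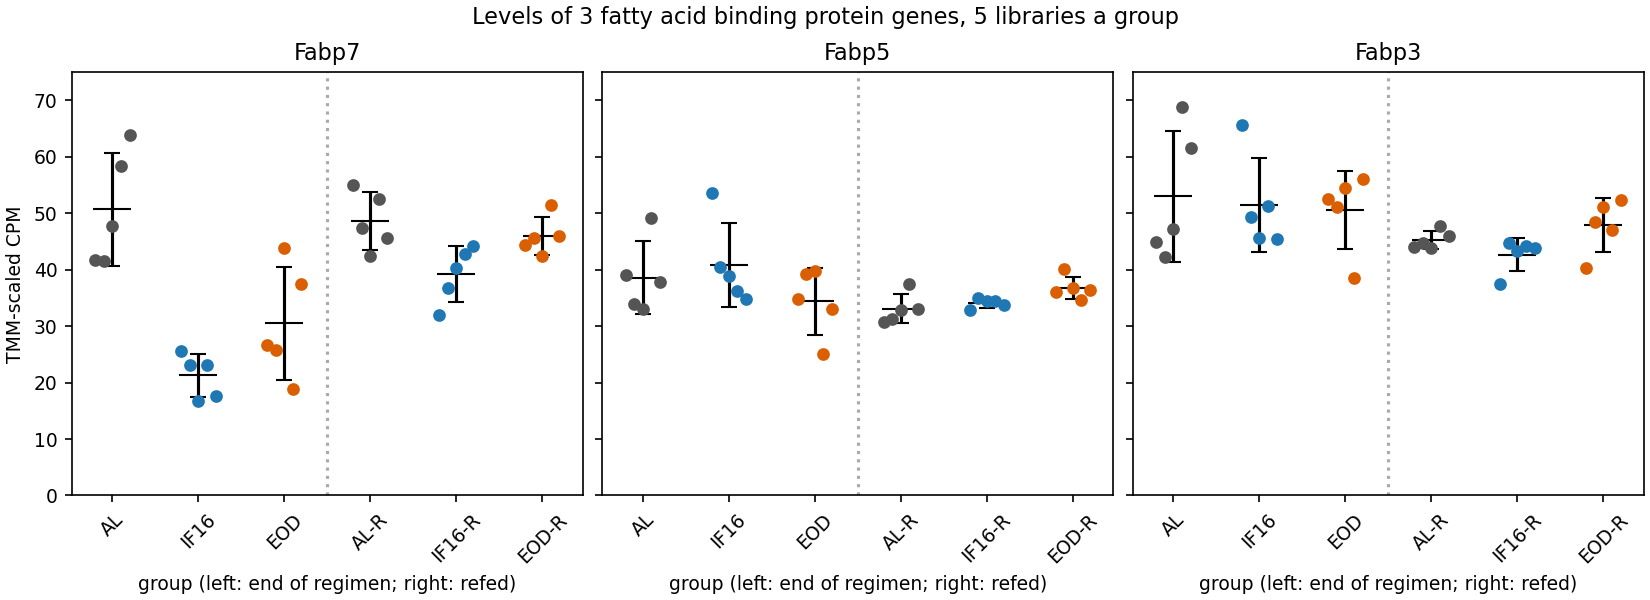
CPM of Fabp7, Fabp5 and Fabp3 (vertical axis, from 0) in each of 30 libraries, by group; points are libraries in replicate order and bars are the mean and SD of 5. Fabp7 runs from 16.8 to 25.6 in IF16 and from 41.6 to 63.9 in AL, while the ranges of Fabp5 and Fabp3 overlap among the 3 groups of each table.

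Fabp5 stood at 39.1, 33.9, 33.1, 49.2 and 37.8 CPM in AL replicates 1 to 5. In IF16 it stood at 53.6, 40.5, 38.9, 36.3 and 34.9 CPM. In EOD it stood at 34.9, 39.2, 39.8, 25 and 33.1 CPM. All 3 groups overlapped, with the highest value in IF16 replicate 1 and the lowest in EOD replicate 4. Means were 40.9 ± 7.47 in IF16, 38.6 ± 6.45 in AL and 34.4 ± 5.96 in EOD (SD, n = 5 each), an order whose neighbours do not differ beyond their spread. Against AL, Fabp5 differed by 0.08 on the log2 scale in IF16 (SE 0.141, interval -0.217 to 0.38, no test). In EOD against AL it was -0.17 (SE 0.142, interval -0.466 to 0.133, edgeR adjusted p = 0.52), and in EOD against IF16 -0.25 (SE 0.142, interval -0.548 to 0.0511, adjusted p = 0.977).

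After refeeding Fabp5 stood at 30.8, 31.3, 32.9, 37.5 and 33.1 CPM in AL-R. In IF16-R it stood at 32.8, 35, 34.4, 34.4 and 33.7 CPM. In EOD-R it stood at 36, 40.1, 36.7, 34.7 and 36.4 CPM. The IF16-R libraries lay within a narrow band, with a coefficient of variation of 2.42%, and 4 of 5 EOD-R libraries were above all of them. EOD-R averaged 36.8 ± 2, IF16-R 34.1 ± 0.825 and AL-R 33.1 ± 2.64 CPM (SD, n = 5 each). EOD-R had 111% of the AL-R level, a log2 fold change of 0.15 (SE 0.0524, interval 0.0424 to 0.262), with an unadjusted p of 0.00915 and an edgeR adjusted p of 0.413. IF16-R against AL-R gave 0.04 (SE 0.0525, interval -0.0687 to 0.151, adjusted p = 0.831) and EOD-R against IF16-R 0.11 (SE 0.0524, interval 0.00122 to 0.221, adjusted p = 0.512).

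Fabp3 stood at 44.9, 42.3, 47.3, 68.9 and 61.5 CPM in AL replicates 1 to 5. In IF16 it stood at 65.7, 49.3, 45.7, 51.3 and 45.5 CPM. In EOD it stood at 52.6, 51.2, 54.4, 38.6 and 56.1 CPM. The high libraries of AL and IF16 and the low library of EOD are the 4 with the steepest length gradients, and the groups overlapped throughout. AL averaged 53 ± 11.6, IF16 51.5 ± 8.33 and EOD 50.6 ± 6.95 CPM (SD, n = 5 each). Against AL the log2 fold change was -0.04 in IF16 (SE 0.142, interval -0.341 to 0.261, no test) and -0.07 in EOD (SE 0.142, interval -0.367 to 0.235, edgeR adjusted p = 0.808). In EOD against IF16 it was -0.03 (SE 0.142, interval -0.327 to 0.275, adjusted p = 0.989). The sign of all 3 values turned under some alternatives, among them single libraries left out. EOD against AL and EOD against IF16 were 0.25 and 0.16 without the 4 libraries together, and IF16 against AL reached 0.07 without AL replicate 4 and at most 0.1 under any other setting, so no direction is given.

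After refeeding Fabp3 stood at 44, 44.7, 43.8, 47.7 and 46 CPM in AL-R. In IF16-R it stood at 37.4, 44.7, 43.4, 44.2 and 43.8 CPM. In EOD-R it stood at 40.3, 48.5, 51.2, 47.1 and 52.4 CPM. Replicate 1 was the lowest library in both refed fasting groups, and the ranges overlapped. Means were 47.9 ± 4.75 in EOD-R, 45.2 ± 1.63 in AL-R and 42.7 ± 2.99 in IF16-R (SD, n = 5 each). The log2 fold change was -0.08 in IF16-R against AL-R (SE 0.0625, interval -0.214 to 0.0478, edgeR adjusted p = 0.691) and 0.08 in EOD-R against AL-R (SE 0.0623, interval -0.0473 to 0.214, adjusted p = 0.767). EOD-R against IF16-R gave 0.17 (SE 0.0625, interval 0.0355 to 0.297), with an unadjusted p of 0.0155 and an edgeR adjusted p of 0.367.

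Across the members, edgeR called none of those tested. Fabp5 and Fabp3 were 0 of 2 in EOD against AL, where 0.0664% of 16577 genes were called, and 0 of 2 in EOD against IF16, where 0% were. In both, no member reached an unadjusted p under 0.05, where 14.4% and 3.62% of all genes did, and DESeq2 called none of the members. All 3 members were tested in EOD-R against AL-R (0.0426% of 16444 genes called), with 1 at an unadjusted p under 0.05 (Fabp5), as were 8.5% of all genes. They were also tested in EOD-R against IF16-R (0.0182% called), with all 3 at an unadjusted p under 0.05, as were 9.75% of all genes there. DESeq2 called no member in either. No member's ranges were apart in EOD against AL (2.9% of genes in either direction), EOD against IF16 (0.688%), IF16-R against AL-R (2.18%), EOD-R against AL-R (1.87%) or EOD-R against IF16-R (1.26%). In the model over all 30 libraries the EOD difference of Fabp5 was 0.31 higher after refeeding (SE 0.155, interval -0.0016 to 0.631, edgeR adjusted p = 0.484) and that of Fabp3 0.14 higher (SE 0.16, interval -0.184 to 0.471, adjusted p = 0.702). Neither was called (0.0119% of 16877 genes were), nor did either reach an unadjusted p under 0.05 (10.3% of genes did) or a DESeq2 call. The intervals for Fabp5 and Fabp3 are wider at the end of the regimen than after refeeding, and the comparisons of one table share libraries.

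**Figure D3:**
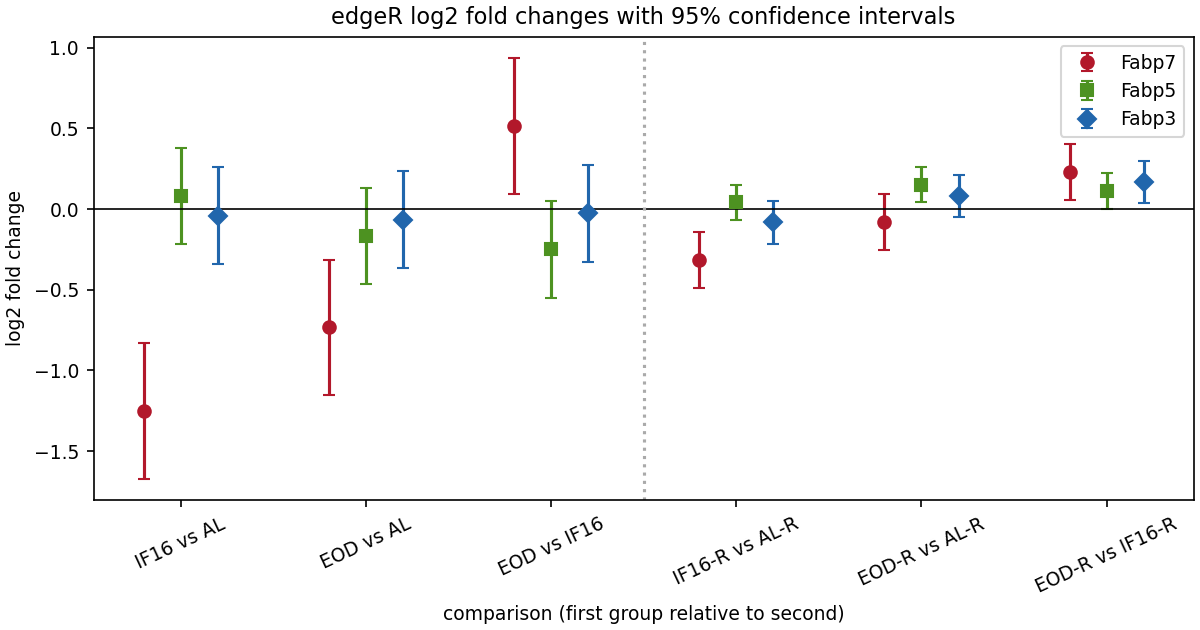
Log2 fold change (vertical axis) of each member in 6 comparisons, first group relative to the second; bars are 95% confidence intervals from edgeR. Fabp7 lies at -1.25 and -0.73 in the first 2 comparisons and at -0.31 in IF16-R against AL-R, while Fabp5 and Fabp3 lie between -0.25 and 0.17 in all 6.

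A ratio within 1 library does not depend on scaling, and Fabp7 and Fabp3 have similar lengths. The ratio of Fabp7 to Fabp3 counts was 0.849 to 1.04 in AL, 0.368 to 0.471 in IF16 and 0.487 to 0.805 in EOD. All IF16 libraries and all EOD libraries were below all AL libraries, the IF16 ratios below the EOD ones as well. The share of other gene pairs whose ratios lie apart was not measured. By CPM, Fabp7 in EOD overlapped both AL and IF16. After refeeding the ratio was 0.969 to 1.25 in AL-R, 0.819 to 1.01 in IF16-R and 0.828 to 1.1 in EOD-R, and the 3 ranges overlapped. EOD replicates 3 and 5, high in Fabp7 CPM, were also the highest in this ratio. In FPKM, Fabp7 was 43.1% ± 2.2 of the sum of the 3 members in AL (SD, n = 5 in each group), 24.3% ± 2.09 under IF16 and 31.8% ± 4.9 under EOD. After refeeding its share was 45.8% ± 2.6 for AL-R, 41.5% ± 2.21 for IF16-R and 43% ± 2.92 for EOD-R. The sizes of these shares rest on the exon lengths used for FPKM. The mean Fabp5 to Fabp3 count ratio stayed between 0.68 and 0.8 in the 6 groups. These ratios use the Fabp7 values that led to its choice and are a description, and a ratio shows unequal levels without saying which gene differs.

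**Figure D4:**
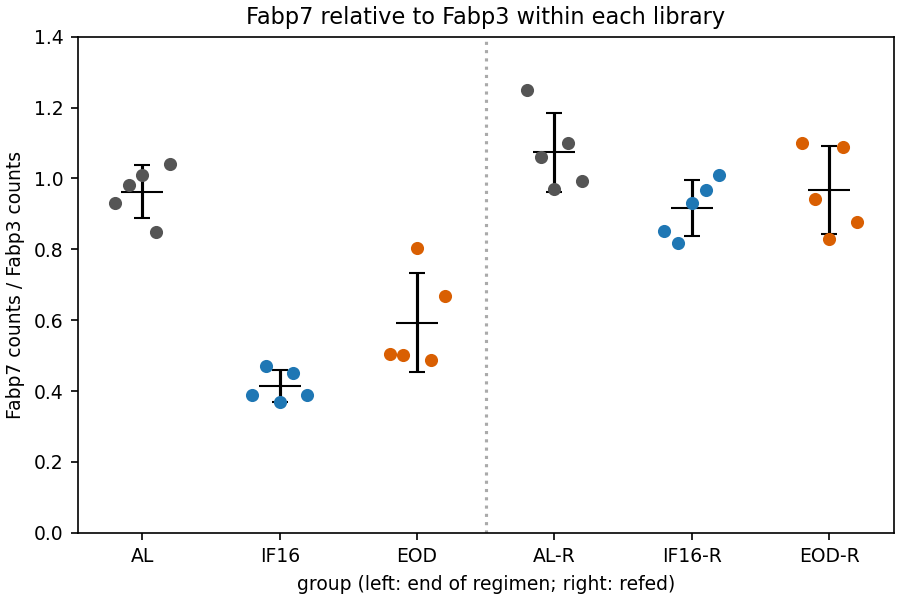
Ratio of Fabp7 to Fabp3 counts (vertical axis, from 0) in each library, by group, with the mean and SD of 5. The IF16 libraries lie between 0.368 and 0.471 and the EOD libraries between 0.487 and 0.805, all under the AL range of 0.849 to 1.04, and the refed groups overlap.

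In bulk tissue fewer cells of a type and less RNA per cell cannot be told apart, so markers of the cells that make Fabp7 are given beside it. Of 20 Bergmann glia and astrocyte markers none was called by edgeR in IF16 against AL, where 0.0483% of 16577 genes were called. Their median log2 fold change was 0.035, against -0.00616 over all genes. There was 1 at an unadjusted p under 0.05, against 9.92% of all genes, and no DESeq2 call. Apoe, the lipid carrier of astrocytes, stood at -0.29 (SE 0.189, adjusted p = 0.593), the glycolytic enzyme Aldoc at -0.01 (SE 0.105, adjusted p = 0.977) and Sparcl1, a secreted astrocyte protein, at 0 (SE 0.0722, adjusted p = 0.984), by edgeR. Their summed level was 11634 to 13720 CPM in AL and 11389 to 13021 in IF16, ranges that overlap. In EOD against AL 4 of the 20 had an unadjusted p under 0.05, as did 14.4% of all genes. The median there was the same, 0.035, with no edgeR call, 1 DESeq2 call and summed levels of 11600 to 13873 CPM in EOD. The marker sums thus overlapped with AL in both fasted groups. The part of cell numbers in the Fabp7 values was not tested.

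After refeeding 2 of the 20 markers were called in IF16-R against AL-R and 1 in EOD-R against AL-R, where 0.17% and 0.0426% of all genes were. In IF16-R against AL-R, 17 had a positive and 2 a negative log2 fold change, with a median of 0.09 against -0.00233 over all genes. Of the 20, 8 had an unadjusted p under 0.05, as did 9.58% of all genes, and DESeq2 called 2. Gja1, the gap junction protein connexin 43, was higher by 0.31 (SE 0.0448, edgeR adjusted p = 0.0116) and Aqp4, the water channel of astrocyte endfeet, by 0.23 (SE 0.0437, edgeR adjusted p = 0.0374), the 2 markers called. In EOD-R against AL-R, 18 were positive and 2 negative, with a median of 0.06, and Gja1 was the 1 marker called by edgeR, at 0.27 (SE 0.0448, edgeR adjusted p = 0.0427). There 8 had an unadjusted p under 0.05, as did 8.5% of all genes, and DESeq2 called 4, namely Gja1, Aqp4, S100b and Vim. Summed levels were 11060 to 12349 CPM in AL-R, 11524 to 12385 in IF16-R and 11997 to 12782 in EOD-R, and overlapped. With the length gradient as a covariate all 3 calls were lost, at log2 fold changes of 0.22 (Gja1) and 0.12 (Aqp4) in IF16-R and 0.27 (Gja1, adjusted p = 0.0553) in EOD-R. Leaving out 1 library at a time, Gja1 lost its call in IF16-R only without IF16-R replicate 3, while Aqp4 lost it without 9 of the 10 libraries and Gja1 in EOD-R without 8 of 10. These 2 comparisons share the AL-R libraries.

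Oligodendrocyte precursors were followed with 7 markers because some of these cells also carry Fabp7. In IF16 against AL all 7 had a negative log2 fold change, with a median of -0.34. None was called by edgeR or DESeq2, and 4 had an unadjusted p under 0.05, as did 9.92% of all genes. Their summed level was 241 to 321 CPM in AL, 180 to 235 in IF16 and 192 to 234 in EOD, so both fasted groups were below AL in every library. Olig1 and Sox10 led the sum, at means of 111 and 80 CPM in AL. No share over other sums of genes was computed. For single genes, IF16 lay wholly below AL in 0.694%, and EOD and AL lay apart in either direction in 2.9%. Olig1 stood at -0.48 (SE 0.14, edgeR adjusted p = 0.307) and Sox10, shared with mature oligodendrocytes, at -0.51 (SE 0.159, adjusted p = 0.345), while Pdgfra, the defining receptor, stood at -0.03 (SE 0.112, adjusted p = 0.931). In EOD against AL the median was -0.28 with no edgeR or DESeq2 call and 4 at an unadjusted p under 0.05, as were 14.4% of all genes. There 6 were negative and 1, Pdgfra, was positive, at 0.19 (SE 0.112, edgeR adjusted p = 0.389). After refeeding the medians were -0.06 (IF16-R) and -0.07 (EOD-R) against AL-R, with no edgeR call and 1 and 0 DESeq2 calls. There 4 and 1 had an unadjusted p under 0.05, as did 9.58% and 8.5% of all genes. The summed levels of 214 to 238 (AL-R), 207 to 244 (IF16-R) and 202 to 229 CPM (EOD-R) overlapped. The part of these cells in the Fabp7 values was not tested.

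The other marker lists gave no edgeR call in any of the 6 comparisons. They cover oligodendrocytes, granule cells, Purkinje cells, endothelium, choroid plexus, meninges, muscle, and adipocytes with Schwann cells. DESeq2 called 1 oligodendrocyte marker and 1 Purkinje cell marker in EOD against AL and none else among them. At most 4 members of any of these lists had an unadjusted p under 0.05 in a comparison, as did 3.62% to 14.4% of all genes in the 6. Muscle, the main site of Fabp3, had a summed marker level of 5.29 to 13.4 CPM over the 30 libraries, lower than in AL in every IF16 and EOD library (8 to 9.39, 6.52 to 7.33 and 5.92 to 7.85 CPM), where Fabp3 ranges overlapped. Oligodendrocyte marker sums were higher in every EOD-R library (5617 to 6706 CPM) than in AL-R (5043 to 5599), and endothelial sums higher in every EOD-R library (377 to 390 CPM) than in AL-R (337 to 372) and IF16-R (340 to 374), where the ranges of all 3 members overlapped. No share over other sums of genes was computed for these separations.

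Genes for fatty acid uptake and activation formed a list of 18, of which 17 were tested. None was called by edgeR in any of the 6 comparisons, and medians ran from -0.05 to 0.04. In IF16 against AL 5 had an unadjusted p under 0.05, as in EOD against AL, with 0 and 1 DESeq2 calls. The shares of all genes at such a p were 9.92% and 14.4%. After refeeding 3 of 17 had an unadjusted p under 0.05 in either group against AL-R, with no DESeq2 call. Of all genes 9.58% (IF16-R) and 8.5% (EOD-R) did. Between the fasting groups 0 (EOD against IF16) and 2 (EOD-R against IF16-R) had an unadjusted p under 0.05, beside 3.62% and 9.75% of all genes. DESeq2 called 0 and 1 there. By FPKM the list was led by Dbi, the acyl-CoA binding protein (461 and 385 FPKM in the 2 tables), Acot7, an acyl-CoA thioesterase of neurons (234 and 195), and Acsbg1, a long-chain acyl-CoA synthetase (119 and 115). Their log2 fold changes in IF16 against AL were 0.1 (SE 0.12, edgeR adjusted p = 0.758), -0.2 (SE 0.14, adjusted p = 0.62) and -0.07 (SE 0.0677, adjusted p = 0.724). The DESeq2 call in EOD against AL was Mfsd2a, a transporter of lysophosphatidylcholine that carries docosahexaenoic acid, at 0.59 (SE 0.138, edgeR adjusted p = 0.175), and that in EOD-R against IF16-R was Dbi, at 0.27 (SE 0.0482, edgeR adjusted p = 0.076). Mfsd2a was named after its values were seen.

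Receptors and enzymes that use the carried lipids formed a list of 14, with 13 tested. It holds the PPAR and RXR nuclear receptors and the endocannabinoid genes. None was called by edgeR or DESeq2 in any of the 6 comparisons, and medians ran from -0.06 to 0.07. At most 2 had an unadjusted p under 0.05, in EOD against AL, where 14.4% of all genes did. Cnr1, the cannabinoid receptor (54.8 and 65.2 FPKM), stood at 0.1 in IF16 against AL (SE 0.115, edgeR adjusted p = 0.755). Rxrb stood at -0.16 (SE 0.114, adjusted p = 0.634) and Dagla, which makes the endocannabinoid 2-arachidonoylglycerol, at -0.07 (SE 0.0811, adjusted p = 0.746).

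Known regulators of Fabp7 formed a list of 10, all tested, and none was called by edgeR or DESeq2. They include PAX6, POU3F2, nuclear factor I proteins, the Notch pathway and the clock repressor REV-ERB alpha (Nr1d1). Medians were 0.03 in IF16 against AL and 0.11 in EOD against AL, with 3 and 1 at an unadjusted p under 0.05, and -0.035 and 0.005 after refeeding, with 2 and 3. Those in IF16 were Hes1 (-0.48), Nfib (0.19) and Nr1d1 (0.24), and the 1 in EOD was Hes1 (-0.39). After refeeding they were Hes5 (-1.01) and Pax6 (0.09) in IF16-R, and Hes5 (-0.75), Pax6 (0.08) and Nfib (0.08) in EOD-R. Of all genes, 9.92% and 14.4% had an unadjusted p under 0.05 in IF16 and EOD, and 9.58% and 8.5% in IF16-R and EOD-R. Hes5 had 5 to 41 counts per library, and DESeq2 gave it no adjusted p in these 2 refed comparisons. The most abundant by FPKM were Nfix (79.5 and 83.9), Nr1d1 (42.6 and 50.2) and Pax6 (26.3 and 28.8). In IF16 against AL, Nfix stood at 0.04 (SE 0.0776, edgeR adjusted p = 0.862), Nr1d1 at 0.24 (SE 0.0912, adjusted p = 0.423) and Pax6 at 0.02 (SE 0.0722, adjusted p = 0.919).

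Clock genes were followed because Fabp7 mRNA is known to follow the day. Like the other lists, this one was chosen with earlier results of these data known, so its p-values are not a fresh test. Of 19 tested, 3 were higher in IF16 against AL by edgeR and 16 were positive, with a median of 0.25, beside 0.0483% of all genes called. DESeq2 called 8, where it called 96 genes in all. An unadjusted p under 0.05 was reached by 15 of the 19 and by 9.92% of all genes. Ciart, a repressor of the clock, rose by 0.89 (SE 0.107, edgeR adjusted p = 0.00174), Per1, a period gene, by 0.73 (SE 0.123, adjusted p = 0.0451) and Tef, a clock output factor, by 0.49 (SE 0.0594, adjusted p = 0.00174). In EOD against AL, Per1 (0.72, SE 0.123, edgeR adjusted p = 0.0436) and Tef (0.34, SE 0.0593, edgeR adjusted p = 0.0485) rose, beside 0.0664% of all genes called. The median there was 0.19. Of the 19, 12 had an unadjusted p under 0.05, as did 14.4% of all genes, and DESeq2 called 5, where it called 128 genes in all. The 2 calls in IF16 for Ciart and Tef were kept in all 18 alternatives run, with log2 fold changes of 0.82 to 0.95 and 0.45 to 0.52, while Per1 kept its call in 7 of 18 in IF16 (0.63 to 0.8 over all 18) and 5 of 18 in EOD (0.5 to 0.79), and Tef in 2 of 18 in EOD (0.27 to 0.37). None was called after refeeding against AL-R by edgeR or DESeq2, with medians of 0.08 (IF16-R) and 0.07 (EOD-R). There 5 and 1 had an unadjusted p under 0.05, as did 9.58% and 8.5% of all genes. The hour of collection of each library was not given, and the part of time of day in the Fabp7 values was not tested.

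**Figure D5:**
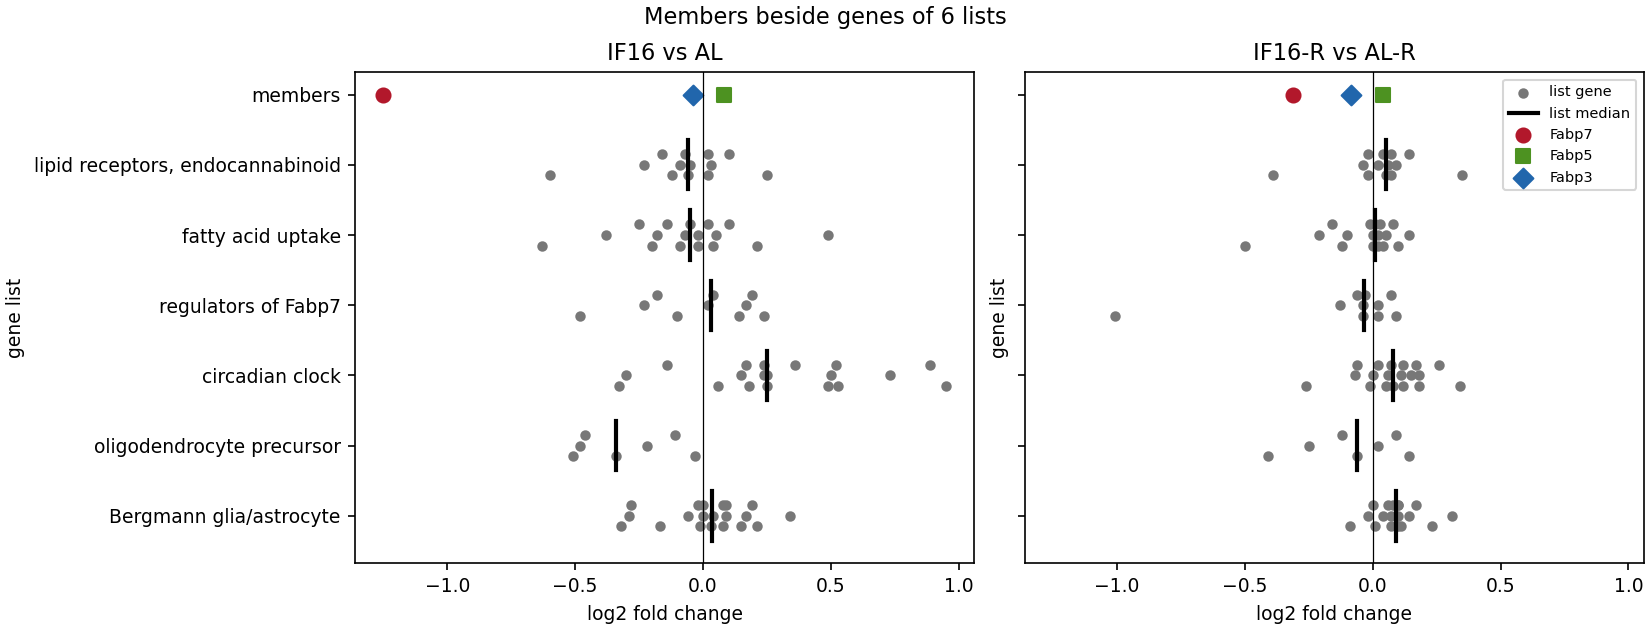
Log2 fold change (horizontal axis) of each tested gene of 6 lists (grey points; black bars are medians) and of the 3 members (coloured), in IF16 against AL (left) and IF16-R against AL-R (right). Fabp7 lies at -1.25 on the left, where the glial markers have a median of 0.035, the precursor markers -0.34 and the clock genes 0.25, and at -0.31 on the right.

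Genes whose levels varied most like each member were sought among 12976 genes that averaged 1 CPM or more in both tables. Pseudogenes and symbols of Gm plus digits or ending in Rik were left out first. The most alike genes were those ranked highest by the smaller of their Pearson correlations of log2 CPM over the 15 libraries of each table. For Fabp7 they were Emcn (r = 0.835 at the end of the regimen and 0.73 after refeeding), Khdrbs3 (0.729 and 0.727), S1pr5 (0.709 and 0.765), Fam174b (0.696 and 0.71) and Rpl10 (0.678 and 0.7). For Fabp5 they were Stmn4 (0.871 and 0.883), Cops5 (0.874 and 0.824), Npm1 (0.823 and 0.824), Cldn10 (0.826 and 0.811) and Cox7a2l (0.796 and 0.794). For Fabp3 they included H2afz (0.921 and 0.909), Elp5 (0.906 and 0.925), Swi5 (0.932 and 0.903) and Ndufb10 (0.902 and 0.916). These genes of Fabp3 followed it more tightly than those of Fabp7 followed Fabp7. Among the members, Fabp5 and Fabp3 correlated at 0.757 and 0.497, Fabp7 and Fabp3 at 0.474 and 0.493, and Fabp7 and Fabp5 at 0.229 and 0.0151. The points share their libraries, scaling and length gradients, and the values are descriptions over 15 libraries a table.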

How the data were processed

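RNA was measured in 30 cerebellum libraries; 12 ChIP samples of the series were not used here. The authors deposited raw read counts per gene and FPKM in 2 tables of 15 libraries; per the submitters' processing notes they used STAR 2.5, HTSeq 0.6.1 and build mm10, while strand handling and the annotation release are not given in the sources used here. The deposited FPKM were recomputed from the counts to within a relative difference of 5e-12. Counts were tested with edgeR 4.0.16 (quasi-likelihood test, TMM scaling, filterByExpr) in R 4.3.3, separately in each table because the 2 were deposited apart, over 16577 and 16444 genes, and over 16877 in a joint model of all 30 libraries for the change between tables; p-values were adjusted by Benjamini-Hochberg over all genes tested, with calls at an adjusted p under 0.05. Levels set across the tables are descriptions. The script was tested on simulated data. Replicate pairs within a group all differed by more than counting noise (60 pairs, chi-square per degree of freedom 4.24 to 136). The members, the gene lists and the rule for named genes were chosen with earlier results of these data known: the members, every called gene of a list, otherwise its 3 most abundant by FPKM, and the 5 genes most alike; 2 of these genes are not reported here. A few further genes of these lists (Gdf10, Slc1a3, Ttr, Pdgfra, Sox10, Hes1, Hes5, Nfib) and the 2 near copies were named after their values were seen. Alternatives were DESeq2, other scalings and filters, a length-gradient covariate, a replicate block and leaving out libraries. Genes without an adjusted p from DESeq2 count as not called by it.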

Additional observations from a re-analysis of the deposited data

Results flagged for a closer look

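Among the 18 sets of 5 libraries (3 members in 6 groups) 3 had 1 library far from the other 4, where chance alone gives about 1 in 20, and all 3 were for Fabp3. In IF16, replicate 1 was at 65.7 CPM and the nearest library at 51.3. In EOD, replicate 4 was at 38.6 CPM and the nearest at 51.2. In IF16-R, replicate 1 was at 37.4 CPM and the nearest at 43.4. The gap as a share of the group's range was 0.714, 0.721 and 0.81. The first 2 libraries had length gradients of -0.114 and 0.139, and the part of the gradient in them was not tested.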

How the results depend on the processing

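Of the 465 member log2 fold changes recomputed under an alternative, 12 with a test turned sign, 1 with a test passed the threshold and 1 with no test moved by more than the spread between libraries. Among those with no test 16 others turned sign within that spread, all close to 0: Fabp3 in IF16 against AL (up to 0.1), Fabp5 there (-0.04) and the changes of the IF16 difference for Fabp3 (up to 0.05) and Fabp5 (up to 0.07). The cause was not tested for any of them. With the length gradient as a covariate, EOD against AL was 0.03 for Fabp5 and 0.2 for Fabp3, EOD against IF16 was 0.1 for Fabp3 and IF16-R against AL-R 0.03 for Fabp3. Leaving out the 4 libraries of steepest gradient, an alternative chosen after seeing the data, gave 0.05 for Fabp5 and 0.25 for Fabp3 in EOD against AL, 0.16 for Fabp3 in EOD against IF16, -0.17 for the change of the Fabp3 EOD difference and 0.31 for that of Fabp7. Leaving out 1 library at a time gave -0.14 to 0.05 for Fabp3 in EOD against AL (0.05 without AL replicate 4, 0.02 without EOD replicate 4) and -0.07 to 0.08 in EOD against IF16 (0.08 without IF16 replicate 1, 0.06 without EOD replicate 4). For Fabp7 it gave -1.32 to -1.15 in IF16 against AL and -0.9 to -0.6 in EOD against AL. DESeq2 called Fabp7 in IF16-R against AL-R (-0.31, adjusted p = 0.0378).

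Counts of genes called varied more. DESeq2 called 96, 128 and 1 in IF16 against AL, EOD against AL and EOD against IF16, where edgeR called 8, 11 and 0, then 103, 79 and 121 in the refed comparisons in the same order (edgeR 28, 7 and 3) and 27 and 14 for the changes between tables (8 and 2). The gradient covariate gave 62, 7 and 1, and 0 in all 3 refed comparisons. Leaving out 1 library gave 3 to 10, 2 to 6, 0 to 0, 0 to 65, 0 to 16 and 0 to 71, and 5 to 16 and 0 to 6 for the changes; the ends were without AL replicate 3 and IF16 replicate 1 (IF16 against AL), AL replicates 2 and 1 (EOD against AL), IF16-R replicates 3 and 1, AL-R replicate 1 and EOD-R replicate 1, and IF16-R replicate 3 and EOD-R replicate 1. Without a low-count filter EOD against IF16, EOD-R against AL-R and EOD-R against IF16-R had 1, 11 and 6, RLE scaling gave 7 in EOD against AL, a choroid plexus covariate 3 in IF16 against AL, 19 in EOD against AL and 16 in EOD-R against AL-R, and fits of 2 groups 5 in IF16 against AL, 1 in EOD against IF16, 4 in EOD-R against AL-R and 0 in EOD-R against IF16-R; without the 4 libraries EOD against AL had 2.

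Replicate numbers pair nothing that the labels name. Same-numbered libraries correlated from -0.534 to 0.322 at the end of the regimen and from -0.0545 to 0.427 after refeeding, with 0 and 7 of 15 libraries closest to their own number. Their mean correlation was -0.0496 at the end of the regimen, against 0.0125 for other numbers. After refeeding it was 0.127 against -0.0311, and what the refed libraries of 1 number share was not tested. A replicate block moved the counts of genes called to 5, 4 and 0, to 95, 45 and 40, and to 10 and 13, and Fabp7 in IF16-R against AL-R to -0.31 with an edgeR adjusted p of 0.0591. Depth was at least 574 counts per library for each member.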

Other observations

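Fabp1, the liver form, had 23 of its 24 counts over all 30 libraries in EOD replicate 1, and the intestinal form Fabp2 had none there or elsewhere.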
